A study of Mus musculus with 28 samples.

Results

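The endothelial marker genes described here are 10 mouse genes that characterise the lining cells of blood vessels: Flt1, Kdr, Tek, Tie1, Cdh5, Cdh13, Ramp2, Eng, Pecam1 and Emcn. They were chosen as a named list by gene symbol, and each was read from the 1 probe set that carries its symbol alone. They are 10 of the 19938 genes that the array names in this way. The study delivered cardiac transcription factors to mouse embryonic fibroblasts (MEFs) to convert them directly into cardiomyocyte-like cells, and measured RNA on 28 single-channel expression arrays.

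A letter stands for each delivered factor in the group names: H is Hand2, N is NKX2.5, D is MYOCD, and G, M and T are GATA4, MEF2C and TBX5. HNGMT had 3 arrays, HGMT 3, NGMT 6, GMT 5, DMNT 4 and DMT 4, and the reference cells, 0F, had 3. All factor groups carried tetracycline-inducible lentiviral factors, rtTA and a reporter in which the troponin T promoter drives the calcium indicator GCaMP5 and zeocin resistance. They were given doxycycline at 2 μg/mL, were selected with zeocin at 300 μg/mL for 7 days, and were collected on day 21. The selected cells are therefore those in which the troponin T promoter was active. By their titles the 0F cells are MEFs that received no virus, also at day 21, although the source-name label describes them like the selected cells. A comparison of any factor group with 0F spans viral transduction, doxycycline, selection and the change from MEF medium to a medium based on AGM without EGF. The age and strain of the donor embryos are not used here, and the labels call the replicates independent biological ones.

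Endothelial cells sense vascular endothelial growth factors (VEGFs) through receptor tyrosine kinases. KDR (VEGFR2) carries most of the growth signal, and FLT1 (VEGFR1) binds VEGF-A tightly and can limit how much reaches KDR. Angiopoietins signal through TEK (TIE2), with TIE1 as its co-receptor, and help vessels to mature. VE-cadherin (Cdh5) and PECAM1 hold neighbouring endothelial cells together, RAMP2 turns the calcitonin receptor-like receptor into a receptor for adrenomedullin, and endoglin (Eng) is a co-receptor for ligands of the TGF-beta family. Several of these genes are also active outside endothelium: Flt1 and Pecam1 in blood cells, Eng in mesenchymal cells, and Cdh13, which encodes the membrane-anchored adiponectin receptor T-cadherin, in heart and smooth muscle.

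The deposited log2 signals fell into 3 sets of arrays with nearly equal distributions within a set, and the labels name no such sets. Set 1 held NGMT replicates 1 to 3, GMT replicates 1 and 2, and all 0F arrays. Set 2 held all HNGMT and HGMT arrays, NGMT replicates 4 to 6, DMT replicates 1 to 3 and GMT replicates 3 to 5. Set 3 held all DMNT arrays and DMT replicate 4. Levels moved with the set: Ramp2 lay at 6.26 to 6.34 log2 signal in GMT cells of set 1 and at 7.43 to 7.63 in GMT cells of set 2. The summed adipocyte marker signal of GMT cells lay at 9.67 to 9.94 in set 1 and at 11.1 to 11.7 in set 2 (log2), and its part in the Ramp2 difference was not tested. Levels are therefore compared within a set, and the fit held set as a term beside group. An alternative given below, quantile normalization with no set term, pools the arrays of a group over sets. Differences between sets can therefore enter its values. HNGMT replicate 1 stood apart from its group, with a smallest SD of its difference to another HNGMT array of 0.352, against 0.110 to 0.209 for the other arrays. With RNA from whole cultures, fewer cells of a type and less RNA per cell cannot be told apart.

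The endothelial markers Kdr, Tie1, Pecam1 and Emcn lay below the array's median signal on all 28 arrays. A signal below the median is dim rather than absent, since the deposited values carry no detection calls. In set 2, Kdr lay at 5.07 to 5.31 log2 signal in HNGMT cells, at 5.13 to 5.29 in HGMT cells and at 5.18 to 5.50 in GMT cells. Tie1 lay at 6.04 to 6.21 and Pecam1 at 5.64 to 5.91 over the whole of set 2. These 4 genes did not pass the filter, which asked for a signal above the array median on at least 3 arrays. Cdh5, the defining junctional marker of endothelium, passed it only through the 3 HGMT arrays, so its presence among the tested genes was tied to the group where it was high. Flt1 and Eng were above the median on all 28 arrays, Cdh13 on 26, Ramp2 on 16 and Tek on 9, the last being all HNGMT, HGMT and 0F arrays.

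**Figure D1:**
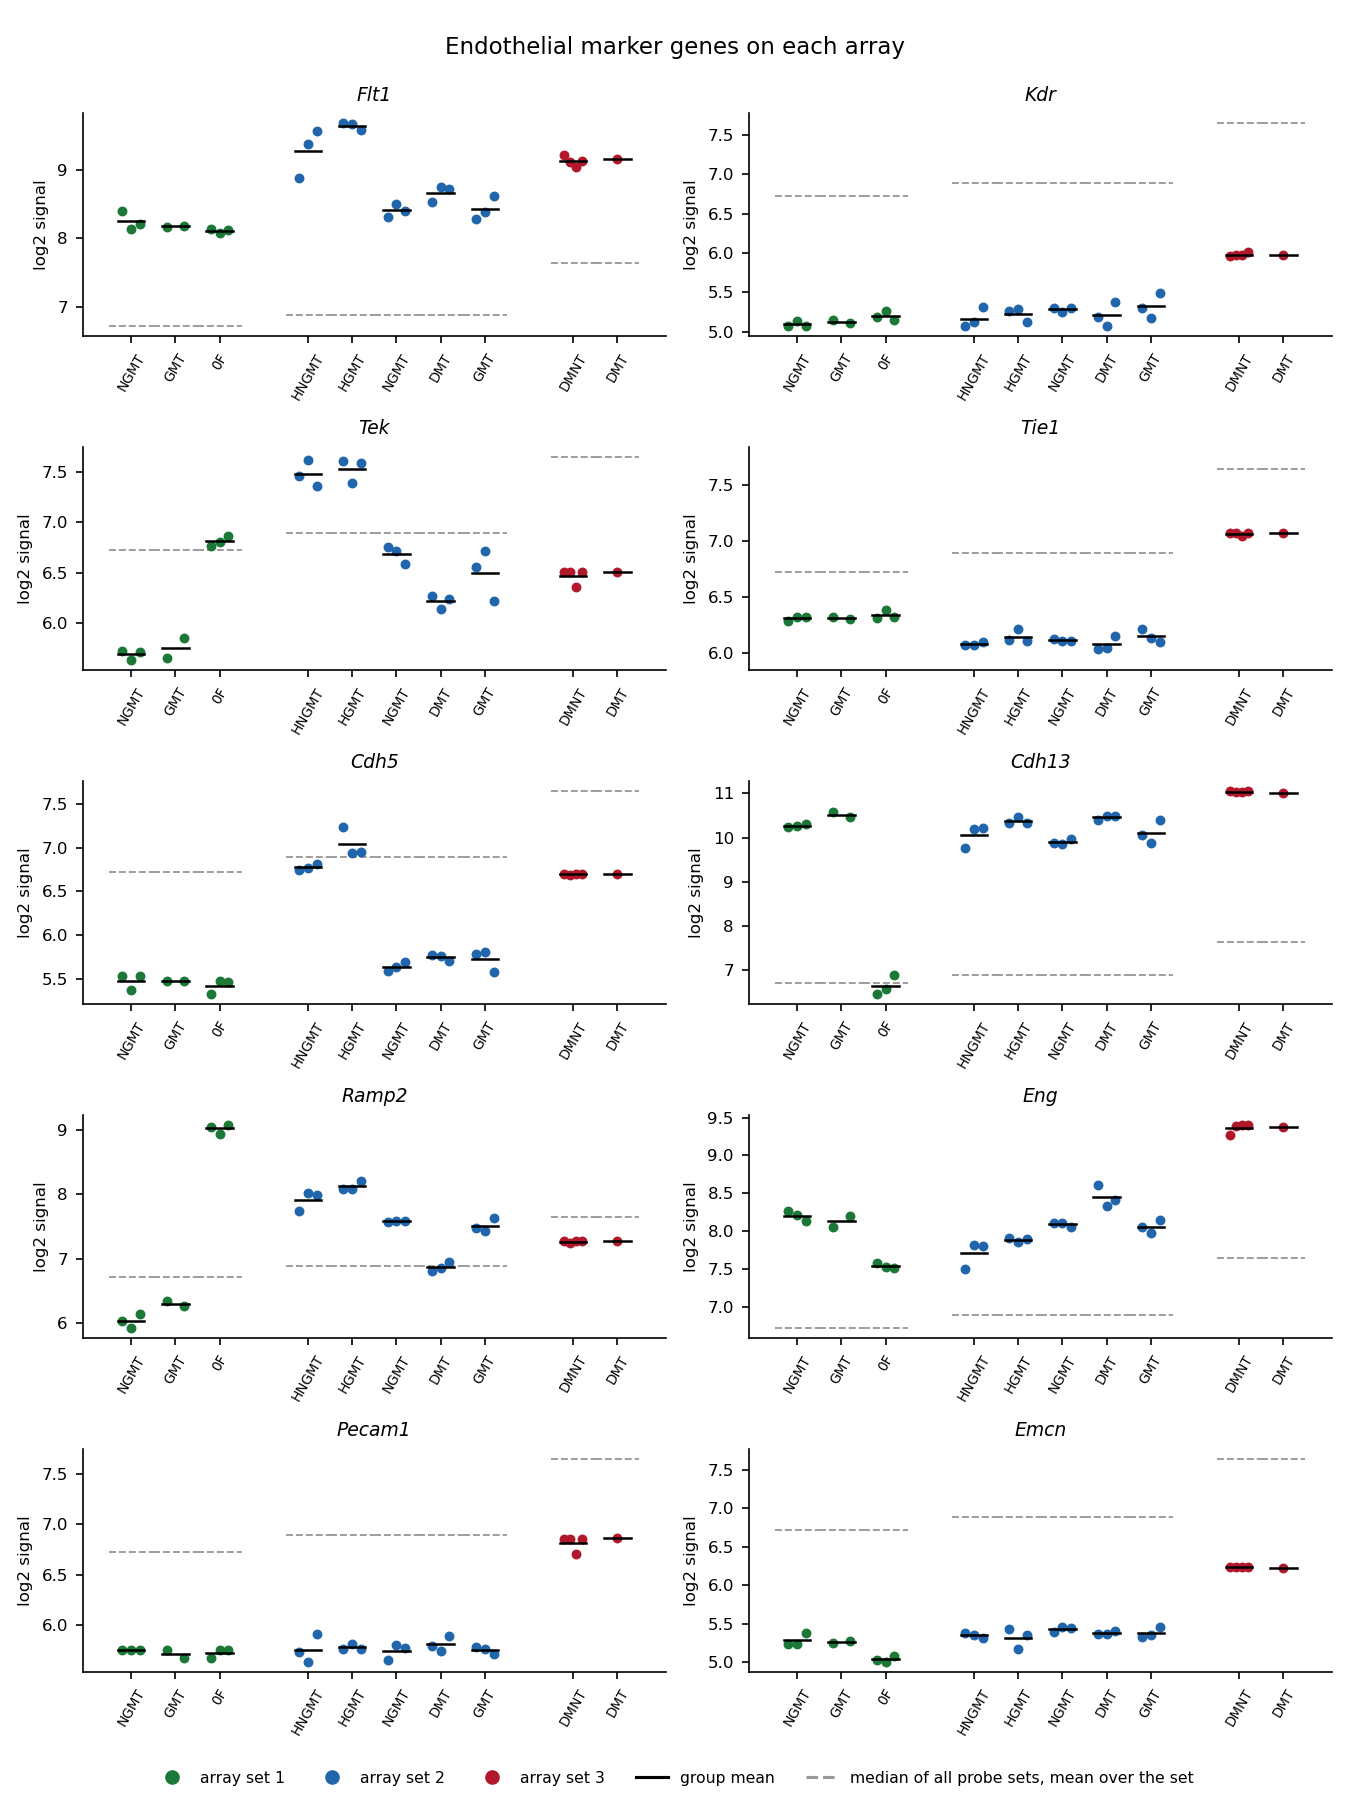
Log2 signal of each of the 10 endothelial marker genes (one panel per gene, each with its own y axis that does not start at 0) on every array, by factor group within each of the 3 array sets; points are arrays, bars are group means and dashed lines are the median of all probe sets. In set 2, Cdh5 lies at 6.75 to 7.24 on the 6 arrays with Hand2 and at 5.58 to 5.81 on the other arrays, while Tie1 and Pecam1 stay within 6.04 to 6.21 and 5.64 to 5.91.

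The comparison of GMT cells with 0F cells asks how the starting fibroblasts and the 3-factor cells differ. Cdh13 was higher and Ramp2 and Tek were lower in GMT cells than in 0F cells, Eng was moderately higher, and Flt1 and Cdh5 did not pass the test. Of the 12211 genes tested, 60.1% were called at an adjusted p under 0.05, 35.9% higher and 24.1% lower, so that a call in this comparison is the common outcome. Of the 10 endothelial marker genes, 2 were called higher, 2 lower and 2 not called, and 4 were below the filter.

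Cdh13 had 10.57 and 10.46 log2 signal in the GMT cells of set 1, against 6.46, 6.57 and 6.89 in 0F cells. Every GMT array lay far above every 0F array. The difference was 3.86 ± 0.11 (log2, SE; limma, adjusted p = 1.87e-19), or 14.54-fold higher in GMT cells. Ramp2 had 6.34 and 6.26 in the GMT cells of set 1, against 9.05, 8.94 and 9.08 in 0F cells. The groups did not overlap, and Ramp2 fell by 2.84 ± 0.08 on the log2 scale (adjusted p = 2.18e-19), or 7.14-fold lower in GMT cells. The GMT signals of Ramp2 in set 1 were below the array median, and the difference was -2.08 with quantile normalization and no set term, still called.

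Tek, the angiopoietin receptor, had 5.65 and 5.85 log2 signal in the GMT cells of set 1, against 6.77, 6.80 and 6.87 in 0F cells. No GMT array of that set reached the 0F range, and the difference was -1.14 ± 0.10 (adjusted p = 3.02e-10). Eng had 8.05 and 8.21 in GMT cells and 7.58, 7.53 and 7.51 in 0F cells, without overlap, a difference of 0.60 ± 0.07 (adjusted p = 1.53e-07). Quantile normalization with no set term gave smaller differences for these genes too, at -0.70 for Tek and 0.40 for Eng, and both were still called. Flt1 differed by 0.09 (95% interval -0.14 to 0.33, adjusted p = 0.50) and Cdh5 by 0.08 (-0.06 to 0.23, adjusted p = 0.319). Among the dim genes, in a fit without the filter that called 41.7% of 19938 genes, Emcn was called, with 5.25 and 5.27 in GMT cells against 5.03, 5.003 and 5.07 in 0F cells (difference 0.21 ± 0.05, adjusted p = 6.93e-04), and Kdr, Tie1 and Pecam1 were not.

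NGMT cells of set 1 showed the same 4 genes past the test against 0F, in a comparison that shares the 0F arrays. Cdh13 had 10.25, 10.25 and 10.31 log2 signal in NGMT cells and was higher by 3.64 ± 0.10 (adjusted p = 1.65e-19). Ramp2 had 6.03, 5.92 and 6.14 in NGMT cells and differed by -2.92 ± 0.08 (adjusted p = 3.44e-20). Tek differed by -1.06 ± 0.09 (adjusted p = 3.52e-10) and Eng by 0.65 ± 0.07 (adjusted p = 1.41e-08). Of the genes tested, 60.8% were called, 36.6% higher and 24.2% lower. In the fit without the filter, which called 42.4% of genes, Emcn was higher by 0.26 ± 0.05 (adjusted p = 4.58e-05). With quantile normalization and no set term, Tek differed by -0.69 and Ramp2 by -2.28, both still called.

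The ligands and partners of these receptors moved in both directions between GMT and 0F cells. Of the 8 VEGF and angiopoietin ligands with a probe set, 7 were tested, 2 were higher and 3 lower, with a median difference of -0.07 against 0.05 over all genes tested. Vegfd, a ligand of the VEGF receptors, differed by -1.55, Angpt4 by -1.42 and Angpt2, which antagonises or activates TEK by context, by 0.46. Of 14 tested partners of the receptors, 4 were higher and 3 lower. They included Acvrl1, the type I receptor that works with endoglin in endothelium, which differed by -0.89 (adjusted p = 1.60e-10), and Nrp1, the co-receptor of KDR, which differed by -0.62. Tgfb3 was higher by 0.77 (adjusted p = 2.28e-09), a call lost with quantile normalization and no set term (0.33). Endothelial transcription factors were higher in 5 of 15 tested cases and lower in 6, with Lmo2 at -1.61, Ets2 at 1.54 and Elk3 at 1.11. Of 18 other endothelial surface and secreted genes tested, 5 were higher and 7 lower, among the lower ones Cd36 (-6.53) and Fabp4 (-3.20), which adipocytes and macrophages also make, and Cd34 (-2.37), which fibroblasts also carry. Classical cadherins and catenins were higher in 6 of 8 tested cases and lower in 2. Cdh2 and Cdh3, which connect cardiac and epithelial cells, were higher by 1.37 and 1.25. With quantile normalization and no set term the differences were smaller by over 1.5 times for Acvrl1 (-0.55), Cd34 (-1.38), Cdh2 (0.75) and Cdh3 (0.67), all still called.

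Markers of other cell types moved with the same contrast. All 5 tested adipocyte markers, Fabp4 among them, were lower, with a summed log2 signal of 9.67 to 9.94 in GMT cells of set 1 and 14.6 on each 0F array. All 8 tested macrophage and leukocyte markers were also lower, with sums of 9.89 to 9.97 in GMT cells and 12.4 to 12.9 in 0F cells. All 8 tested fibroblast markers were lower and all 8 cardiomyocyte markers higher. Pericyte and smooth muscle markers were higher in 5 of 7 tested cases and lower in 1. Their sums were 13.19 on each GMT array of set 1 and 12.2 to 12.3 in 0F cells. Mesothelial markers were also higher in 3 of 4 cases, with sums of 12.9 to 13.0 in GMT cells and 8.36 to 8.50 in 0F cells. Their part in the differences of Ramp2, Tek, Cdh13 and Eng was not tested.

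**Figure D2:**
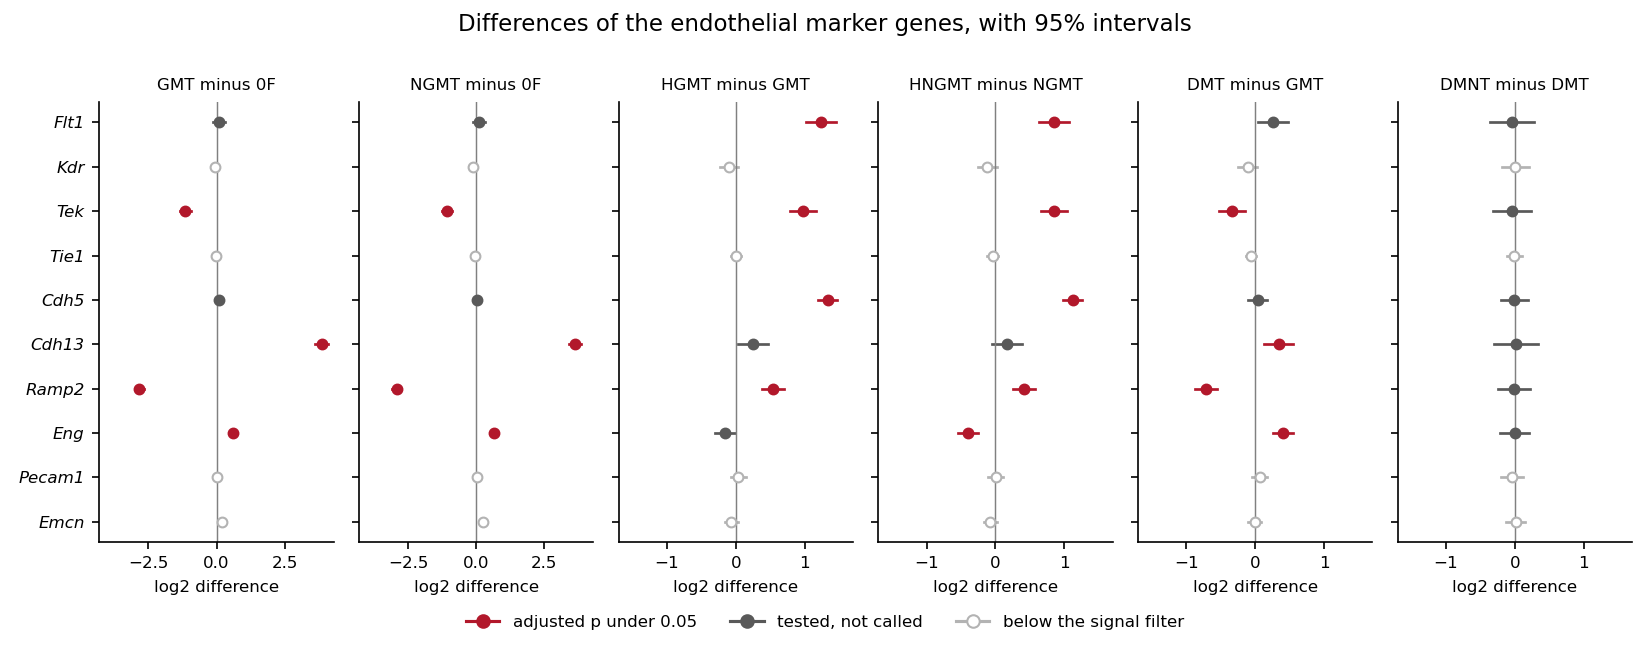
Log2 difference of each endothelial marker gene (rows) in the comparisons between factor groups, first-named group minus second. Points are the fitted values and bars their 95% intervals. Red points are called at an adjusted p under 0.05, dark grey filled points were tested and not called, and open points were below the signal filter. Cdh13 (3.86) and Ramp2 (-2.84) lie farthest from 0 in GMT minus 0F, and Cdh5 (1.33), Flt1 (1.24) and Tek (0.98) in HGMT minus GMT.

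Adding Hand2 to GMT asks what one more factor changes. Flt1, Tek, Cdh5 and Ramp2 were higher in HGMT cells than in GMT cells, by 1.45-fold to 2.52-fold, whereas Kdr, Tie1, Pecam1 and Emcn, the dim markers, were not called in a fit without the filter that called 17.2% of genes. Of the 12211 genes tested, 26.7% were called, 12.2% higher and 14.5% lower. Of the 10 genes, 4 were called higher, none lower and 2 were not called, and 4 were below the filter. A count over genes that passed the filter supports nothing by itself, since Cdh5 passed it only through HGMT.

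The upstream sequences of the receptor genes are shown because the comparison adds a factor of the basic helix-loop-helix class, whose members bind E-boxes, here searched as CANNTG, with CATCTG as a word known for HAND2 dimers and a subset of CANNTG. The 250 bases before the gene's start come from RefSeq on GRCm38.p6, and 6 of the 10 genes matched that table. They are given 5′ to 3′ on the gene's strand with each E-box in capitals: Flt1 at chr5:147726012-147726261 (minus strand), Kdr at chr5:75978456-75978705 (minus strand), Tek at chr4:94739039-94739288 (plus strand) and Tie1 at chr4:118489850-118490099 (minus strand).
Flt1: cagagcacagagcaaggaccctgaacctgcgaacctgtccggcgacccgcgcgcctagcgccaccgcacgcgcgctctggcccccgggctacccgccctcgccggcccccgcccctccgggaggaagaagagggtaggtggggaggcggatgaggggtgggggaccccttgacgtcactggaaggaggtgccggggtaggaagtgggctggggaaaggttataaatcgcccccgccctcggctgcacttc
Kdr: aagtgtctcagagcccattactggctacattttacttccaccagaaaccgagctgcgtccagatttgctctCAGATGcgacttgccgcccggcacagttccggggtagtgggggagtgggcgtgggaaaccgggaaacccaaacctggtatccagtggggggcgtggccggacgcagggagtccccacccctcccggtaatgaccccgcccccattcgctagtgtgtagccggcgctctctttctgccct
Tek: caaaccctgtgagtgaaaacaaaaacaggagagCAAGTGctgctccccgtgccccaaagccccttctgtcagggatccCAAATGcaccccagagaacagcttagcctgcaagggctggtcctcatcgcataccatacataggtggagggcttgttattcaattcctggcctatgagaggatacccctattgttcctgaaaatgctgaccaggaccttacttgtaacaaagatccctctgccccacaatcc
Tie1: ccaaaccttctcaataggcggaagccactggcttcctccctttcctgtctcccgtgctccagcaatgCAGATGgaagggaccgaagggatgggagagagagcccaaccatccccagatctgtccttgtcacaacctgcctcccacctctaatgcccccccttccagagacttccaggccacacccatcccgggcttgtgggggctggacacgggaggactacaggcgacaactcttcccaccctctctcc
The Flt1 window held no E-box, and the Tek window held 2, CAAGTG and CAAATG. The Kdr and Tie1 windows each held 1, CAGATG, which reads CATCTG on the other strand. Searched on both strands, CANNTG was found in 66.2% and CATCTG in 14.4% of 32851 such windows, so the matches are a description of these letters only. Of the other matched genes, the Eng window also held 1 E-box, CAGATG, and the Emcn window 1, CAAGTG. The CATCTG word was thus in the windows of Kdr, Tie1 and Eng and not in those of Flt1, Tek and Emcn, and a missing word says only that these letters are not in this window.

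Flt1, the VEGF-A receptor and sink, had 9.68, 9.67 and 9.58 log2 signal in HGMT cells, against 8.29, 8.38 and 8.62 in the GMT cells of set 2. Every HGMT array lay above every GMT array, and the difference was 1.24 ± 0.11 (SE; adjusted p = 2.91e-09), or 2.36-fold. Kdr, its partner receptor, had 5.26, 5.29 and 5.13 in HGMT cells, against 5.30, 5.18 and 5.50 in GMT cells. The Kdr groups overlapped, with a difference of -0.10 (95% interval -0.23 to 0.04, adjusted p = 0.373 in the fit without the filter).

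Tek had 7.61, 7.39 and 7.59 log2 signal in HGMT cells, against 6.56, 6.72 and 6.22 in GMT cells of set 2. The HGMT arrays lay above the array median and all 3 of these GMT arrays below it, and the difference was 0.98 ± 0.09 (adjusted p = 1.55e-08). Its co-receptor Tie1 differed by 0.00 (-0.07 to 0.08) and stayed dim. Cdh5 had 7.24, 6.94 and 6.95 in HGMT cells, against 5.79, 5.81 and 5.58 in GMT cells, without overlap. The difference of 1.33 ± 0.07 (adjusted p = 1.48e-13) was 2.52-fold, with GMT signals below the array median. Since Cdh5 passed the filter only through these HGMT arrays, the fit without the filter is given too (adjusted p = 4.20e-14). Pecam1, the other junction gene, differed by 0.03 (-0.08 to 0.14, adjusted p = 0.757), and Emcn by -0.07.

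Ramp2 had 8.08, 8.08 and 8.21 log2 signal in HGMT cells, against 7.48, 7.43 and 7.63 in GMT cells, and the groups did not overlap. The difference was 0.54 ± 0.08 (adjusted p = 9.95e-06) and 0.99 with quantile normalization and no set term. Cdh13 had 10.33, 10.46 and 10.32 in HGMT cells and 10.06, 9.87 and 10.39 in GMT cells. Those groups overlapped, with a difference of 0.25 ± 0.10 (adjusted p = 0.0775), and without GMT replicate 5 it was 0.35 (adjusted p = 0.0107). Eng had 7.91, 7.85 and 7.90 in HGMT cells, against 8.06, 7.97 and 8.14 in GMT cells, a difference of -0.16 ± 0.07 that was not called (adjusted p = 0.0920) but was with quantile normalization and the set term (-0.19, adjusted p = 0.0369).

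The ligands, partners and other endothelial genes did not show one direction with Hand2. Of the 7 tested ligands, 2 were higher and 2 lower, with a median difference of 0.21 against -0.01 over all genes. Vegfa, the chief ligand of FLT1 and KDR, had 9.60, 9.68 and 9.59 log2 signal in HGMT cells, against 10.10, 10.15 and 10.90 in GMT cells of set 2. All HGMT arrays were lower, and the difference was -0.70 ± 0.14 (adjusted p = 4.23e-04). Of the 14 tested partners, 2 were higher and 3 lower, the higher ones including Tgfbr2, the TGF-beta receptor that endoglin joins, at 0.44 (adjusted p = 2.86e-06). The calcitonin receptor-like receptor gene Calcrl, the partner of RAMP2, differed by -0.35 and was not called (adjusted p = 0.171), while its ligand gene Adm, adrenomedullin, was higher by 0.34 (adjusted p = 0.00688). Ramp3, the alternative partner of that receptor, differed by -0.54 (adjusted p = 2.91e-04), a call lost with quantile normalization and no set term (-0.05).

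Of the 18 other endothelial surface and secreted genes tested, 4 were higher and 2 lower, a median of 0.03. Vwf, the clotting factor carrier stored in endothelial cells, differed by -0.01 and Nos3, endothelial nitric oxide synthase, by -0.10, neither called. Among the higher ones were Cd36 (1.64), Fabp4 (0.71) and Lyve1, the lymphatic hyaluronan receptor (1.11, adjusted p = 3.91e-08), which was not called with quantile normalization and no set term (0.42). Of the 15 tested endothelial transcription factors, 5 were higher and 3 lower, a median of -0.04. Erg, a central regulator of endothelial identity, differed by -0.81 ± 0.16 (adjusted p = 3.49e-04). Epas1, a hypoxia-inducible factor, was higher by 0.63 and Klf4, a flow-responsive factor, by 0.44. Of the 8 classical cadherins and catenins tested, 5 were higher and none lower, with Cdh3 at 1.64 and Cdh2 at 0.98, the Cdh2 call being lost under that same alternative (0.59).

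Markers of other cell types again moved with the result. All 5 tested adipocyte markers were higher with Hand2, with sums of 12.7 to 13.1 in HGMT cells and 11.1 to 11.7 in GMT cells of set 2. Of the 4 mesothelial genes, 3 were higher, Wt1 by 1.46 and Msln by 1.44 among them, and Upk1b differed by -1.62, with the Msln call lost with quantile normalization and no set term (0.24). Their sums were 10.8 to 11.1 in HGMT cells and 10.3 to 10.5 in GMT cells. Macrophage sums were 10.1 on every HGMT array and 10.2 to 10.5 in GMT cells. Of 8 cardiomyocyte markers, 5 were lower, with differences of -2.28 for Myl7 and -2.07 for Tnni3. Pericyte and smooth muscle markers were higher in 1 of 7 tested cases and lower in 3. Fibroblast markers were higher in 3 of 8 cases and lower in 0. The part of these genes in the Cdh5, Flt1, Tek and Ramp2 differences was not tested.

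**Figure D3:**
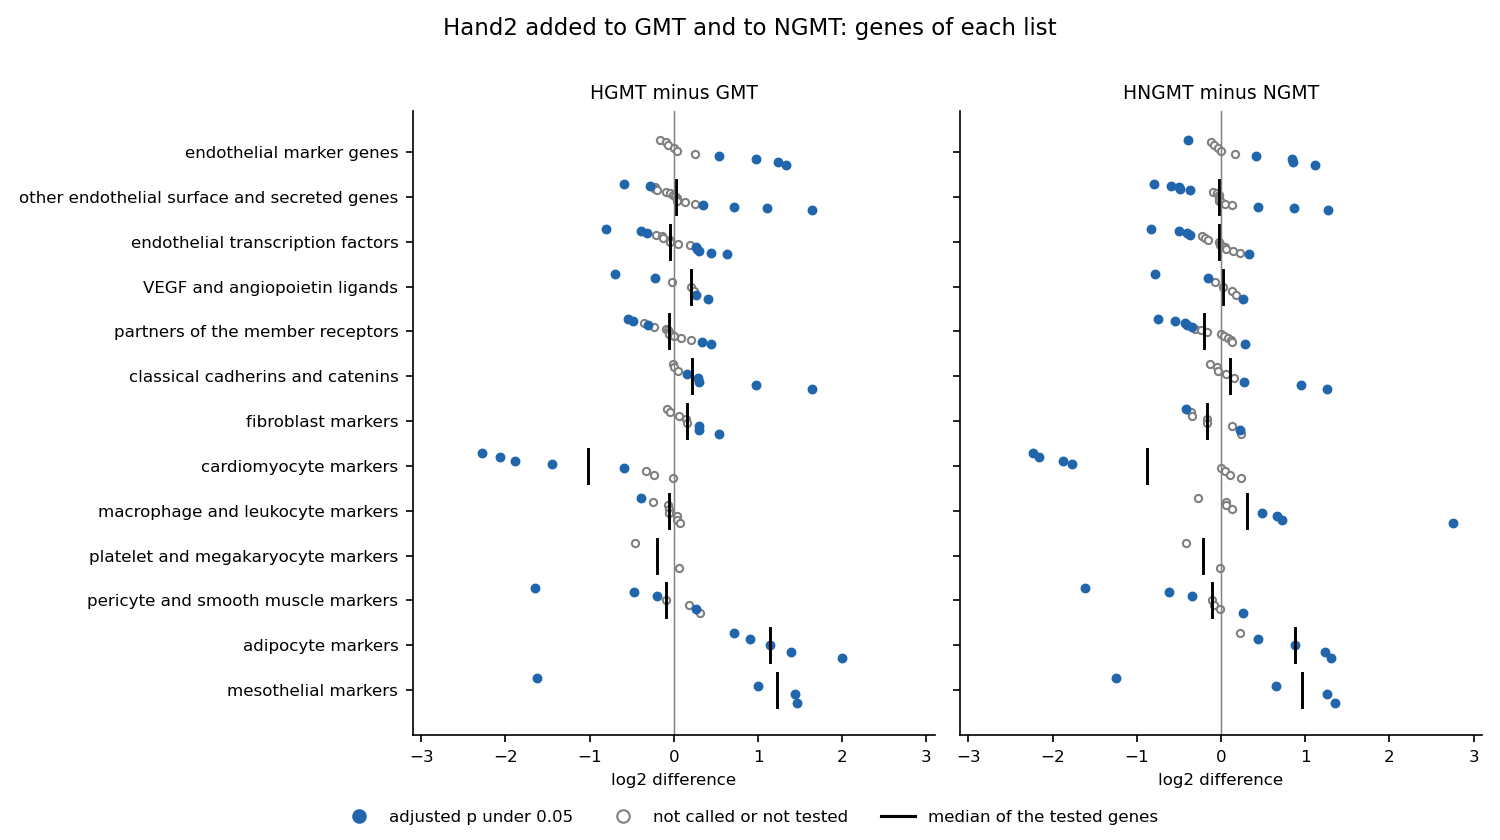
Log2 difference of the genes of each list (rows) when Hand2 was added to GMT (left) and to NGMT (right); filled points are called at an adjusted p under 0.05, open points are not called or, for the endothelial marker genes, also not tested, and black bars are medians of the tested genes. The endothelial marker genes run from -0.16 (Eng) to 1.33 (Cdh5) on the left, and the other endothelial lists lie on both sides of 0.

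The same 4 genes were called higher when Hand2 was added to NGMT, between groups that share no array with HGMT and GMT. Both comparisons come from the same fit, with a shared set term and a shared estimate of the spread, so they are not independent. Flt1, Tek, Cdh5 and Ramp2 were higher in HNGMT cells than in NGMT cells, and Eng was lower. Of the genes tested, 31.7% were called, 8.73% higher and 22.9% lower. Of the 10 endothelial marker genes, 4 were higher, 1 was lower, 1 was not called and 4 were below the filter.

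Cdh5 had 6.75, 6.77 and 6.81 log2 signal in HNGMT cells, against 5.59, 5.63 and 5.69 in the NGMT cells of set 2. The difference was 1.12 ± 0.07 (adjusted p = 5.82e-12), or 2.17-fold, with no overlap. Flt1 had 8.88, 9.38 and 9.57 in HNGMT cells, against 8.32, 8.51 and 8.40 in NGMT cells. HNGMT replicate 1 was the lowest of its group and still above every NGMT array, and the difference was 0.85 ± 0.11 (adjusted p = 1.97e-06). Without that replicate it was 1.04 (adjusted p = 1.79e-09).

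Tek had 7.46, 7.61 and 7.36 log2 signal in HNGMT cells, against 6.75, 6.72 and 6.58 in NGMT cells. All HNGMT arrays were higher, by 0.85 ± 0.09 (adjusted p = 2.23e-07). Ramp2 had 7.74, 8.02 and 7.99 in HNGMT cells, against 7.57, 7.58 and 7.58 in NGMT cells, a difference of 0.41 ± 0.08 (adjusted p = 3.19e-04) that was 1.00 with quantile normalization and no set term. Eng had 7.49, 7.82 and 7.81 in HNGMT cells, against 8.11, 8.10 and 8.06 in NGMT cells. Each HNGMT array was lower than each NGMT array, with a difference of -0.39 ± 0.07 (adjusted p = 1.71e-04), and of -0.29 (adjusted p = 0.00159) without HNGMT replicate 1. Cdh13 differed by 0.17 (adjusted p = 0.238), and by 0.32 (adjusted p = 0.0201) without HNGMT replicate 1.

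Vegfa differed by -0.79 (adjusted p = 1.31e-04), Erg by -0.83 (adjusted p = 3.06e-04) and Tgfbr2 by 0.28 (adjusted p = 6.90e-04) when Hand2 was added to NGMT. Of the 14 partners tested, 1 was higher and 5 lower, and of the 15 endothelial transcription factors, 1 was higher and 4 lower. Adipocyte sums were 12.1 to 13.1 in HNGMT cells and 11.46 to 11.95 in NGMT cells of set 2. Of 8 macrophage and leukocyte markers tested, 4 were higher, with sums of 10.2 to 11.7 in HNGMT cells, which include replicate 1, and overlapping sums of 10.1 to 10.8 in NGMT cells. Of 4 mesothelial markers, 3 were higher and 1 lower, with sums of 10.6 to 10.9 in HNGMT cells and 9.94 to 10.3 in NGMT cells. Of 8 cardiomyocyte markers, 4 were lower and none higher, with sums of 13.2 to 13.3 in HNGMT cells and 13.9 to 14.1 in NGMT cells. Their part in these differences was not tested.

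Whether NKX2.5 altered the response to Hand2 was read from the difference between both Hand2 effects. No endothelial marker gene was called: the Hand2 effect with NKX2.5 minus that without was -0.39 ± 0.14 for Flt1 (adjusted p = 0.215), -0.22 for Cdh5 (adjusted p = 0.243) and -0.23 for Eng (adjusted p = 0.240). Limma called 0 of 12211 genes (0%), with 2044 at an unadjusted p under 0.05. The number of called genes rose from 0 to 349 without HNGMT replicate 2, 611 without HNGMT replicate 3 and 65 without GMT replicate 4. Leaving out any other array of the groups compared gave at most 2 calls. Without HNGMT replicate 3, Flt1 was called (-0.54, adjusted p = 0.0352). Without HNGMT replicate 1, which stood apart from its group, the Flt1 value was -0.19 (adjusted p = 0.599). A p that misses the threshold does not show that the Hand2 effects were equal.

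Setting HNGMT against HGMT cells, no endothelial marker gene was called, and 0.622% of all genes (76) were, with 3143 called without HNGMT replicate 3, 2407 without HNGMT replicate 2, 14 without HNGMT replicate 1, and 1 to 11 without an HGMT array. In the order of levels within set 2, Cdh5 ran highest in HGMT cells (6.94 to 7.24) and next in HNGMT cells (6.75 to 6.81), without overlap, a difference of -0.26 (adjusted p = 0.0619). Flt1 differed by -0.37 (adjusted p = 0.0775), Eng by -0.18 (adjusted p = 0.145), and Tek, whose groups overlapped, by -0.05 (adjusted p = 0.764). Without HNGMT replicate 2, Cdh5 (-0.26), Flt1 (-0.42), Ramp2 (-0.26), Eng (-0.24) and Cdh13 (-0.38) were called. Without HNGMT replicate 3, Cdh5 (-0.28), Flt1 (-0.52), Eng (-0.23) and Cdh13 (-0.39) were called. Without HNGMT replicate 1, which stood apart from its group, no tested endothelial marker gene was called. In that fit Cdh5 differed by -0.25 (adjusted p = 0.341), Flt1 by -0.17 (adjusted p = 0.686) and Ramp2 by -0.12 (adjusted p = 0.830). Eng differed by -0.07 (adjusted p = 0.911) and Cdh13 by -0.16 (adjusted p = 0.799).

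Adding NKX2.5 to GMT was measured in 2 sets of arrays. No endothelial marker gene was called for NGMT against GMT, and 1.63% of the genes tested (199) were, with 379 called without GMT replicate 4, 66 and 52 without GMT replicates 1 and 2, and 92 and 87 without NGMT replicates 1 and 2. In the fit of all sets, the difference farthest from 0 was that of Cdh13, -0.22 ± 0.08 (adjusted p = 0.231). The other 5 tested genes differed in that fit by at most 0.08 in either direction. Ramp2 differed by -0.26 in set 1 alone (adjusted p = 0.0908) and by 0.07 in set 2 alone, neither called. The difference of the NKX2.5 effect between set 1 and set 2 was -0.33 ± 0.11 for Ramp2 (adjusted p = 0.237), and 0.639% of genes were called in that contrast (78, and 23 to 179 leaving out single arrays, the lowest without GMT replicate 2 and the highest without NGMT replicate 3).

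Replacing GATA4 with MYOCD, a coactivator of smooth and cardiac muscle genes, gave another pattern. In DMT cells Ramp2 and Tek were lower and Eng and Cdh13 higher than in GMT cells, and Cdh5 and Flt1 were not called. Of the genes tested, 18.6% were called, 9.84% higher and 8.75% lower. Of the 10 endothelial marker genes, 2 were higher, 2 lower and 2 not called, and 4 were below the filter.

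Ramp2 had 6.81, 6.85 and 6.95 log2 signal in DMT cells of set 2, against 7.48, 7.43 and 7.63 in GMT cells. All DMT arrays were lower, by a difference of -0.72 ± 0.08 (adjusted p = 1.22e-07). Within set 2 alone, Ramp2 was also called (-0.64, adjusted p = 4.18e-05). The call was lost with quantile normalization and no set term (-0.31, adjusted p = 0.532), which pools the GMT arrays of sets 1 and 2. Eng had 8.61, 8.34 and 8.41 in DMT cells, against 8.06, 7.97 and 8.14 in GMT cells, without overlap, a difference of 0.40 ± 0.07 (adjusted p = 1.17e-04).

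Tek had 6.27, 6.14 and 6.24 log2 signal in DMT cells of set 2, against 6.56, 6.72 and 6.22 in GMT cells, and GMT replicate 5 lay within the DMT range. The difference was -0.34 ± 0.09 (adjusted p = 0.0106). The call was lost within set 2 (-0.28, adjusted p = 0.128), with quantile normalization and no set term (-0.17), without DMT replicate 2 (-0.30) and without GMT replicate 4 (-0.28). Cdh13 had 10.40, 10.49 and 10.48 in DMT cells and 10.06, 9.87 and 10.39 in GMT cells, a difference of 0.34 ± 0.10 (adjusted p = 0.0232). That call was lost within set 2 (0.35, adjusted p = 0.0944), with quantile normalization and no set term (0.15), without DMT replicates 2 (0.32) or 3 (0.33) and without GMT replicates 3 (0.32) or 4 (0.25). Flt1 differed by 0.26 (adjusted p = 0.10), and by 0.33 (adjusted p = 0.0323) without GMT replicate 5.

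Around these receptors, 1 of 7 ligands was lower and none higher in DMT cells, the lower one being Angpt2, which had 7.33, 7.20 and 6.97 log2 signal, against 7.94, 7.69 and 7.99 in GMT cells of set 2 (difference -0.65 ± 0.09, adjusted p = 9.70e-06). Of 14 partners, 4 were higher and 5 lower, and Ramp1, which gives the calcitonin receptor-like receptor its preference for CGRP, was higher by 0.93 (adjusted p = 5.63e-10). Of 18 other endothelial genes, 2 were higher and 5 lower, with a median of -0.03. The higher ones were Mcam by 2.34 and Esam by 1.05, adhesion molecules that pericytes and smooth muscle or platelets also carry. Among the lower ones, Cd34 had 10.55, 10.30 and 10.42 log2 signal in DMT cells, against 11.71, 11.68 and 11.26 in GMT cells (difference -1.03 ± 0.11). Of 7 tested pericyte and smooth muscle markers, 5 were higher, Cnn1 by 4.78 and Myh11 by 4.50, with sums of 14.33 to 14.48 in DMT cells and 12.97 to 13.08 in GMT cells of set 2. Of 5 adipocyte markers, 3 were lower and none higher, with sums of 10.4 to 10.7 in DMT cells and 11.1 to 11.7 in GMT cells. Of 4 mesothelial markers, 2 were lower and none higher, with a difference of -3.18 for Upk1b and sums of 8.75 to 8.88 in DMT cells and 10.3 to 10.5 in GMT cells. Of 8 cardiomyocyte markers, 3 were higher and 5 lower. The part of these genes in the differences of Eng, Ramp2, Tek and Cdh13 was not tested.

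Adding NKX2.5 to DMT rested on 1 DMT array, replicate 4, which is assumed to vary like the other groups. No endothelial marker gene was called in DMNT against DMT cells, and 0.0737% of all genes were. Each tested gene differed by at most 0.04 in either direction, with Cdh13 at 11.02 to 11.05 log2 signal in DMNT cells and 11.02 in the DMT array. Identical values are common in that set: 62.2% of probe sets had the same value on at least 2 of its arrays, against 34.3% in set 1 and 30.3% in set 2.

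Over all 28 arrays, with each set centred, the genes most like each member were named by Pearson's r across arrays, as a description of arrays that share groups and sets. Cdh5 was closest to Wt1 (r = 0.9775), Wif1 (0.9750) and Hand2 itself (0.9749), one of the delivered factors. Flt1 was closest to Magi1 (0.9663), Plekha6 (0.9558) and Plxna4 (0.9451). Tek was closest to L3mbtl3 (0.9776), Abca9 (0.9659) and Cldn1 (0.9638), and Ramp2 to Kctd12 (0.9914), Raver2 (0.9864) and Ghr (0.9811). Eng was closest to Ppm1l (0.9468), Prkar2a (0.9443) and Ncs1 (0.9438), and Cdh13 to B3galnt2 (0.9863), Hspb7 (0.9854) and A4galt (0.9846).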

How the data were processed

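RNA of 28 cultures was hybridised to single-channel arrays, and the authors deposited log2 signals for 35556 probe sets. MAS5 is the only tool named in the submitters' processing notes, with no version or scaling stated there. Of the probe sets, 21789 carry 1 symbol, 1621 several and 12146 none. That names 19938 genes, for each of which the probe set with the highest mean was taken; the 12211 above the array median on at least 3 arrays were tested. Array sets were found by clustering sorted values (complete linkage, cut at 0.1 log2). Differences were fitted with limma 3.58.1 in R 4.3.3 (lmFit, eBayes with trend; terms for group and array set, 19 residual degrees of freedom), two-sided, and adjusted by Benjamini-Hochberg over the tested genes in each of 8 comparisons and 2 interaction contrasts. An adjusted p under 0.05 was a call, and intervals are 95%. The number of arrays limits the precision. Of each gene list, up to 3 called genes with the largest differences were named, and Adm, Calcrl, Vwf, Nos3, Cd34 in DMT cells and the list genes in HNGMT cells were chosen after their values were seen. Members and lists were chosen with earlier results of these data known. HGMT, HNGMT, DMT and DMNT were not compared with 0F, since no set held both. Alternatives were each set alone, quantile normalization with and without a set term, set as a random block, eBayes without a trend, no filter, a replicate block, leaving out each array and, added after the data were seen, leaving out set 3. The fit was tested on simulated data. The deviations of same-numbered arrays of different groups correlated over 0.1 in 16 of 67 pairs (-0.34 to 0.41, median 0.02). The numbers were not taken as pairs. Same-numbered arrays could lie in different array sets, so this check cannot show that pairing was absent.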

Additional observations from a re-analysis of the deposited data

Results flagged for a closer look

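Single arrays stood apart from their group, by a gap to the nearest array relative to the group's range, in 7 of 40 gene and group combinations. Chance gives about 1 in 20 for independent values without ties. These combinations share arrays and some hold equal values, so that rate cannot show whether 7 is an excess. These 40 combinations do not cover every gene in every group, so a group without a flag was not shown to be free of such arrays. In DMNT cells, Cdh5 was lowest in replicate 2, at 6.69 log2 signal (ratio 1.000, gap 0.0121). Pecam1, Tek and Tie1 were lowest in DMNT replicate 3, at 6.71 (ratio 1.000, gap 0.150), 6.36 (ratio 1.000, gap 0.152) and 7.04 (ratio 1.000, gap 0.0310). Ramp2 was lowest in DMNT replicate 2, at 7.24 (ratio 0.933, gap 0.0270), and Eng in DMNT replicate 1, at 9.27 (ratio 0.926, gap 0.128). A ratio of 1.000 arises where the other arrays of the group hold equal values, as 62.2% of probe sets do on at least 2 arrays of that set. In NGMT cells, Pecam1 was lowest in replicate 4, at 5.65 (ratio 0.732, gap 0.115).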

How the results depend on the processing

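None of the 21 called differences of endothelial marker genes changed sign over 370 alternative values. Of 722 alternative values of the 39 uncalled differences of tested genes, 30 were of the other sign or 0, none of them called. In all, 11 values lost a call and 15 gained one. Of 612 values of the dim genes, 57 were of the other sign or 0, and 19 moved by more than the replicate spread. The uncalled differences (log2) that changed sign follow. In NGMT against GMT they were Cdh5 in set 1 alone (0.0015), Tek in set 1 alone (-0.0616), Ramp2 in set 2 alone (0.0659), and Flt1 in set 2 alone (-0.0181) and with the replicate block (-0.0013). In HNGMT against NGMT, Cdh13 was -0.0805 with quantile normalization and no set term, and in the contrast of Hand2 effects Ramp2 was 0.0187. In DMT against GMT, Cdh5 was -0.0152 with the replicate block. In DMNT against DMT, quantile normalization and no set term gave 0.0833 for Cdh5 and 0.2772 for Eng. There, set as a random block gave 0.0254 for both Cdh5 and Ramp2 and 0.0236 for Eng, and the replicate block gave 0.0194 for Tek, 0.0421 for Ramp2 and 0.0034 for Eng. Leaving out single arrays crossed 0 for Cdh5 in NGMT against 0F (-0.0127 to 0.0652) and DMT against GMT (-0.0043 to 0.0748), for Flt1 (-0.0118 to 0.0726) and Tek (-0.0064 to 0.1374) in NGMT against GMT, and for Tek in HNGMT against HGMT (-0.1229 to 0.0052). It reached 0 or crossed it for Tek (-0.0505 to 0) and Eng (-0.0172 to 0.0287) in DMNT against DMT. It also did so for Cdh13 in the contrast of Hand2 effects (-0.1645 to 0.0625), and for Flt1 (-0.0055 to 0.1582), Eng (-0.0347 to 0.1182) and Cdh13 (-0.1801 to 0.0825) in the contrast of NKX2.5 effects. Counts over all genes moved more. NGMT against GMT had 199 calls, and 674 in set 1 alone, 1 in set 2 alone, 4 with quantile normalization and no set term (1 higher and 3 lower, against 84 and 115), 101 without set 3, and 52 to 379 leaving out single arrays. HGMT against GMT had 3258 calls, and 2080 in set 2 alone, 2024 with quantile normalization and no set term and 2088 with the replicate block. HNGMT against NGMT had 3865 calls, and 2145 in set 2 alone and 1401 with the replicate block. HNGMT against HGMT had 76 calls (16 higher, 60 lower), and 1 in set 2 alone, 40 with quantile normalization and the set term (16 higher, 24 lower), 0 with quantile normalization and no set term, 44 with no filter, 19 with the replicate block, 6 without set 3, and 1 to 3143 leaving out single arrays. DMNT against DMT had 9 calls (8 higher, 1 lower), and 615 in set 3 alone, 14 with quantile normalization and the set term, 719 with quantile normalization and no set term (373 higher, 346 lower), 0 with the replicate block, and 5 to 13 leaving out single arrays. The contrast of Hand2 effects had 0 calls, 2 with quantile normalization and the set term, and 0 to 611 leaving out single arrays. The contrast of NKX2.5 effects between sets had 78 calls, 43 with the replicate block, 35 without set 3, and 23 to 179 leaving out single arrays. The causes were not tested. The replicate block, from numbers that the labels tie to no shared batch, changed the call of 1 endothelial marker gene, Cdh13 in HGMT against GMT (0.38, adjusted p = 0.0451). Set as a random block was not run for the dim genes, and DMNT against DMT could not be estimated without DMT replicate 4. Signals below the array median limit what could be seen for Kdr, Tie1, Pecam1 and Emcn.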
